A study of Homo sapiens with 5 samples.

Results

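ATF3 and p53 binding was examined at 7 genes grouped as cAMP-responsive genes with promoters that carry the cAMP-response element (CRE), *NR4A1*, *NR4A2*, *NR4A3*, *SIK1*, *PER1*, *RGS2* and *PDE4D*, out of 19820 protein-coding genes. A peak was given to a gene when its centre lay between 20 kb upstream of the 5′ end of the gene and the 3′ end of the gene on hg19 (GRCh37). The data were ChIP-seq peak lists of 5 libraries from HCT116 cells, a human colon cancer cell line, and every condition had 1 library, with no replicates. An antibody to ATF3 was used on ATF3-WT cells given DMSO, the solvent (ATF3-Ctrl), on ATF3-WT cells given camptothecin (CPT, 1.5 μM, 4 h; ATF3-CPT) and on ATF3-KO cells given DMSO (ATF3-KO). CPT is a topoisomerase I inhibitor that damages DNA. The ATF3-KO line was made by AAV-mediated homologous recombination at both alleles and selection of single clones, and no CPT-treated ATF3-KO library was analysed here. An antibody to p53 was used on p53-WT cells given CPT (p53-CPT) and on p53-KO cells given DMSO (p53-KO), so this pair differed both in genotype and in treatment. Chromatin of all 5 libraries was crosslinked with DSG (1 mM, 45 min) and with formaldehyde (1%, 10 min).

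A rise in cAMP activates protein kinase A, which phosphorylates CREB, a bZIP factor that sits on the palindrome TGACGTCA (the CRE) or on its half-site TGACG. ATF3 is a bZIP factor of the ATF/CREB family, is induced by many kinds of stress, and recognises the CRE as well as the related AP-1 element (TGACTCA or TGAGTCA). The 7 genes include inducible transcription factors and products that dampen the cAMP signal itself, namely a kinase that restrains the CREB coactivators, a phosphodiesterase that degrades cAMP and a regulator of G-protein signalling.

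The ATF3 libraries held 12820520 to 15457013 tags, and the p53 libraries held 1984941 and 3169743 tags. The share of tags in peaks was 5.6% in ATF3-Ctrl, 12.76% in ATF3-CPT and 0.56% in ATF3-KO. The main value of a peak is its normalized tag count, the number of tags in the peak per 10000000 tags of the library. The lists also give a findPeaks score, a whole number that is not scaled to the library and can exceed the number of tags behind the normalized tag count. It must reach 9 in ATF3-Ctrl and ATF3-CPT and 11 in ATF3-KO to be listed. Binding under these thresholds was not detectable, and all intervals below are 95% intervals for counting error only, exact Poisson for a value and exact conditional for a ratio. As there was 1 library per condition, no difference between conditions could be tested against replicate error.

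The first question was how far the label of CRE promoters held on the sequence. An exact CRE core lay within 2 kb of an annotated TSS in 3 of the 7 genes, *NR4A2*, *SIK1* and *PER1*, against 6.89% of all protein-coding genes. In the narrower window from 250 bases before to 50 bases after a TSS (300 bases), 1 of the 7 genes, *NR4A2*, held the full core, which lay in this window for 6 of its 10 annotated TSSs, while 2.10% of the 78703 promoters of protein-coding transcripts held one. All 7 genes had a half-site (TGACG on either strand, also counted inside a full core) in at least 1 such window, against 26.3% of all promoters. The genes had between 1 (*RGS2*) and 13 (*PDE4D*) TSSs, so they had unequal chances of holding one. Both background shares for this window count single TSS windows and not genes, so the 2 sides are not of 1 unit. By window, half-sites were in 6 of 10 at *NR4A1*, 7 of 10 at *NR4A2*, 2 of 3 at *NR4A3* and 1 of 2 at *SIK1*. At *PER1* they were in 1 of 7, at *RGS2* in 1 of 1 and at *PDE4D* in 2 of 13. A match of letters is a description of the window and not evidence of binding by CREB or ATF3.

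The sequences below show where the 4 full cores in ATF3 peaks of these genes stood. They are given 5′ to 3′ on the strand of the gene, read from the GRCh37 genome at the position of the named peak, with the core TGACGTCA in capitals.
NR4A2 promoter, ATF3-Ctrl peak, chr2:157189300-157189426, - strand: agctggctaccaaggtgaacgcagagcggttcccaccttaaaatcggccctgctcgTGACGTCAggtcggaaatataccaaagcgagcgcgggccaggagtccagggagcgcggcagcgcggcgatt
PER1 promoter, ATF3-Ctrl peak, chr17:8057566-8057692, - strand: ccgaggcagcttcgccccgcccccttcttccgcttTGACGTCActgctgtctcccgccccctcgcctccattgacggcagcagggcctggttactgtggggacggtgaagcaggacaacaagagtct
SIK1 promoter, ATF3-CPT peak, chr21:44847184-44847308, - strand: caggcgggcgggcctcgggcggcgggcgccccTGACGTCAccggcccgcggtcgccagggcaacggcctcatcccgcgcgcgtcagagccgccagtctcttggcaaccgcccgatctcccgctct
PDE4D intron 5, ATF3-Ctrl peak, chr5:58423491-58423617, - strand: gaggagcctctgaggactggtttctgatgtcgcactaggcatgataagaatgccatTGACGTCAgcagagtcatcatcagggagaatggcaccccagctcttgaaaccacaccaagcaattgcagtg

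In *NR4A2* the core (chr2:157189363-157189370) lay 3 bp from the centre of the ATF3-Ctrl peak and 17 bp from that of the ATF3-CPT peak. The *PER1* core (chr17:8057650-8057657) lay 24 bp and 13 bp from the corresponding centres. The *SIK1* core (chr21:44847269-44847276) was outside the ATF3-Ctrl peak, 84 bp from its centre, and inside the ATF3-CPT peak, 26 bp from its centre. The next set shows promoter peaks without the full core, in which only half-sites (TGACG or its complement CGTCA) are in capitals.
NR4A3 promoter, ATF3-Ctrl peak, chr9:102583989-102584115, + strand: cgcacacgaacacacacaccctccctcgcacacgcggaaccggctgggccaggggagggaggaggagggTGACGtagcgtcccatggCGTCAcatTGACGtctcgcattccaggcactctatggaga
SIK1 promoter, ATF3-Ctrl peak, chr21:44847125-44847251, - strand: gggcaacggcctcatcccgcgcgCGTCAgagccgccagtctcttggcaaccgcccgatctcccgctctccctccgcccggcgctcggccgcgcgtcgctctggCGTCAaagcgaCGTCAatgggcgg
NR4A1 promoter, ATF3-CPT peak, chr12:52430807-52430931, + strand: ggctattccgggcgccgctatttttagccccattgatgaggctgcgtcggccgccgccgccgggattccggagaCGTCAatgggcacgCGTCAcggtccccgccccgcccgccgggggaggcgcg
RGS2 promoter, ATF3-CPT peak, chr1:192777891-192778015, + strand: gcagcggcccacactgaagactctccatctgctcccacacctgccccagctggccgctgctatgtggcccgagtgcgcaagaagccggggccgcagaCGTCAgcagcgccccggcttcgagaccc

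Each of the peaks of *NR4A3* and *SIK1* in this set held 3 half-sites, that of *NR4A1* held 2 and that of *RGS2* held 1. Across the 26 ATF3-Ctrl peaks of the 7 genes, 3 held a full CRE core and 2 held an AP-1 core, against 1.93% and 31.0% of all 33681 ATF3-Ctrl peaks. Of the 13 ATF3-Ctrl promoter peaks, 2 held a CRE core, against 4.94% of all ATF3-Ctrl promoter peaks, and 1 held an AP-1 core, against 12.4%. Half-sites were in 9 of these 13 peaks, against 32.2% of all ATF3-Ctrl promoter peaks, and 10 of the 13 had neither full core. With 13 peaks, several of them in the same gene, these shares are counts and not a test.

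In ATF3-Ctrl every one of the 7 genes had at least 1 peak, against 65.0% of all protein-coding genes, and 5 had a peak in a promoter, defined as a centre within 2 kb of the TSS of any protein-coding transcript of the gene. *RGS2* and *PDE4D* had none there. Distances below are from the nearest such TSS of the gene, which differed between peaks of the same gene. Over all protein-coding genes, 40.8% had a promoter peak in ATF3-Ctrl. After CPT the 7 genes again all had a peak, against 80.9% of all genes. They held 41 peaks, 19 of them in promoters of 6 genes, against 56.3% of all genes with a promoter peak in ATF3-CPT. The ATF3-KO list held 2 peaks, both in promoters, 1 at *SIK1* and 1 at *PER1*, against 7.89% of all genes.

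**Figure D1:**
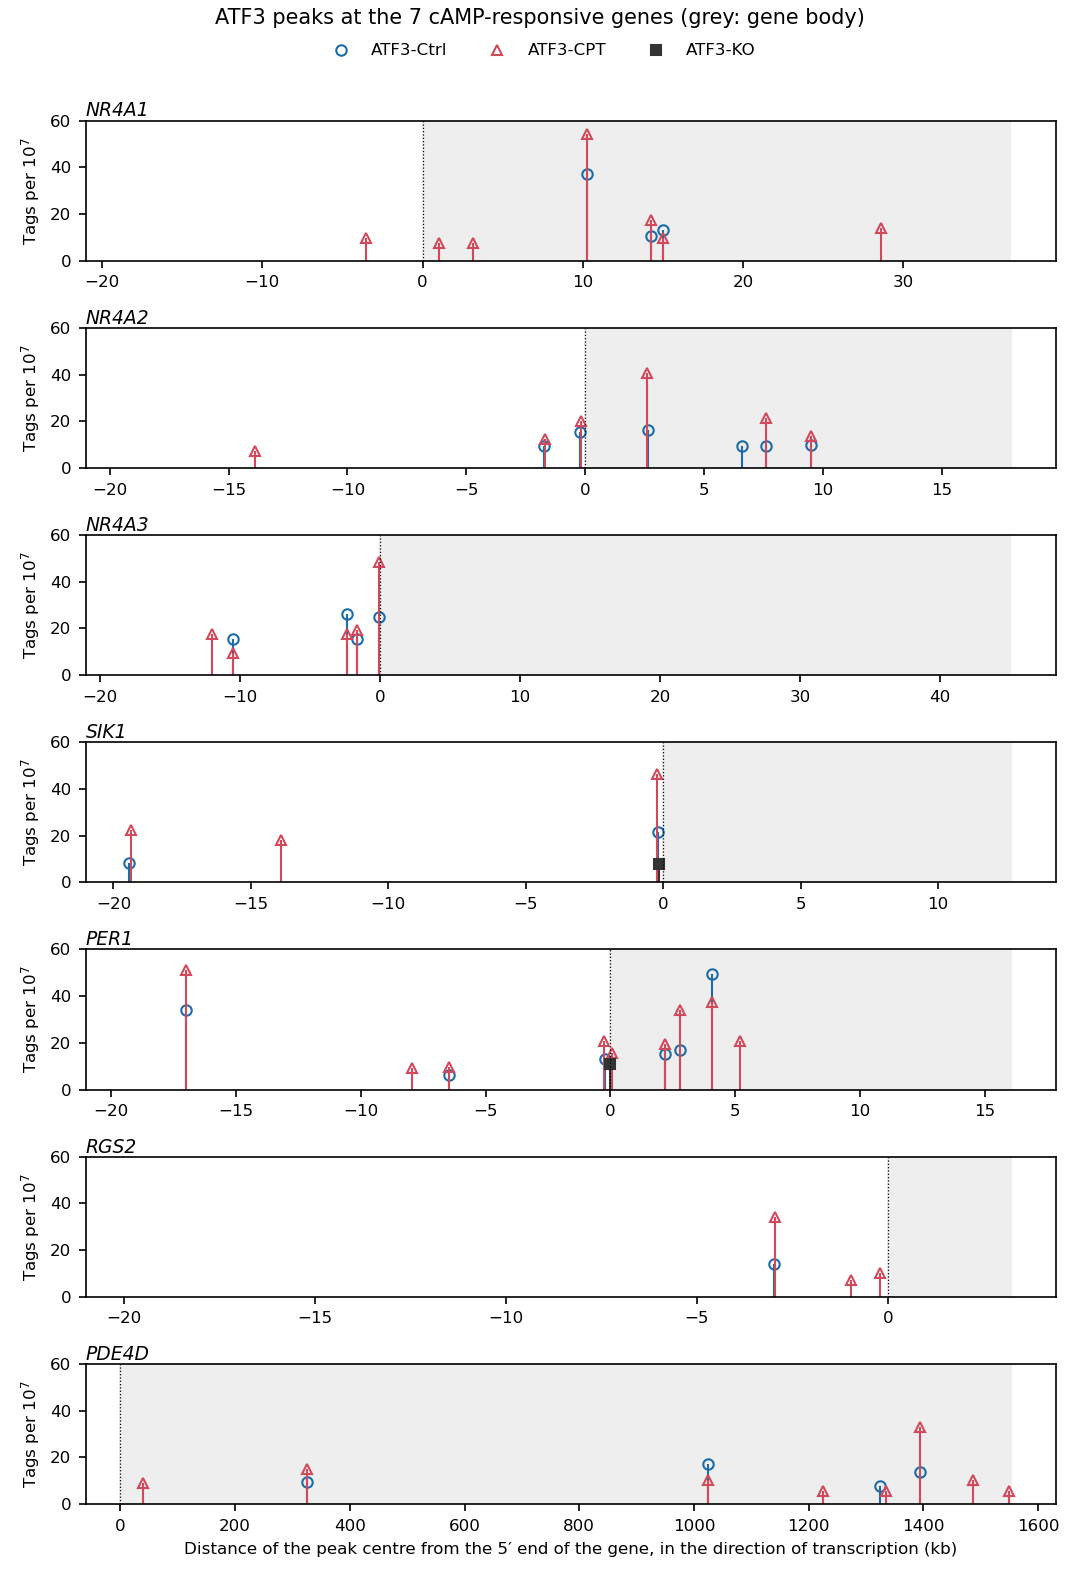
Position and height of the ATF3 peaks at each of the 7 genes. The horizontal axis is the distance of the peak centre from the 5′ end of the gene in kb, the vertical axis is the normalized tag count (tags per 10000000 tags), and grey marks the gene body. Circles are the 26 peaks of ATF3-Ctrl, triangles the 41 peaks of ATF3-CPT and filled squares the 2 peaks of ATF3-KO, at *SIK1* and *PER1*.

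The question of which promoter peaks persisted without ATF3 was taken next. Of the 13 ATF3-Ctrl promoter peaks, 1 overlapped an ATF3-KO peak, against 12.3% of all ATF3-Ctrl promoter peaks. Counted over all 26 ATF3-Ctrl peaks of the 7 genes it was again 1, against 5.23% of all ATF3-Ctrl peaks. Of the 19 ATF3-CPT promoter peaks, 2 overlapped an ATF3-KO peak, against 7.74% of all. With counts of 1 and 2, a difference from the background was not detectable. At an unchanged score per tag of the library, 12 of the 13 ATF3-Ctrl promoter peaks would have reached the threshold of ATF3-KO, and 11 of these 12 were missing from its list. The exception that would not have reached it was the *NR4A2* peak at -1714 bp from the nearest TSS, with a score of 11 in ATF3-Ctrl. The matching shares over all ATF3-Ctrl promoter peaks were not counted. As only 12.3% of all ATF3-Ctrl promoter peaks overlapped an ATF3-KO peak, absence from that list was not particular to the 7 genes.

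The peak that persisted was in front of *SIK1* (chr21:44834363-44847011, minus strand), which encodes salt-inducible kinase 1, a kinase that holds the CREB coactivators in the cytoplasm. It had a normalized tag count of 21.6 in ATF3-Ctrl (95% interval 14.4 to 31.3, chr21:44847125-44847251, centre at -177 bp from the TSS). In ATF3-KO the peak at chr21:44847073-44847271 had 7.8 (3.74 to 14.3), from 10 tags, and contained the whole ATF3-Ctrl peak. The ATF3-KO value was 0.361 times the ATF3-Ctrl value (0.156 to 0.765), although the ATF3-KO peak was wider (198 bp against 126 bp). Its score of 11 equalled the threshold of the list, and 78.7% of the ATF3-KO peaks scored higher. The full CRE core of the *SIK1* promoter ended beyond the edge of the ATF3-KO peak, which held 3 half-sites.

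*PER1* (chr17:8043790-8059824, minus strand) encodes a repressor of the circadian clock. Its ATF3-KO peak, at chr17:8059740-8059938, had a normalized tag count of 10.9 (5.97 to 18.3) and a score of 15, with 44.4% of the ATF3-KO peaks scoring higher. The peak was centred at -116 bp from the TSS at chr17:8059723, which lies upstream of the start of the canonical *PER1* transcript of the annotation. It did not overlap any ATF3-Ctrl peak. The nearest, at chr17:8059977-8060103 with a normalized tag count of 13.1 (7.65 to 21.0), began 38 bases away, and the centres were 201 bp apart. It shared 73 bases with an ATF3-CPT peak (chr17:8059688-8059812) of 15.5 (9.95 to 23.1), of which the ATF3-KO value was 0.703 times (0.336 to 1.42), an interval that includes 1. Among all 1288 ATF3-KO promoter peaks, 88.4% overlapped an ATF3-Ctrl peak, as that of *SIK1* did and that of *PER1* did not. The *PER1* peak held neither core nor half-site, as shown by its part upstream of the gene, which has no capitals.
PER1 promoter, upstream part of the ATF3-KO peak, chr17:8059825-8059938, - strand: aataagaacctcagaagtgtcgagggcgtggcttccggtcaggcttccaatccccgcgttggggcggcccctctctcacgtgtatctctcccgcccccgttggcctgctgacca

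No ATF3-KO peak was listed at *NR4A1*, *NR4A2*, *NR4A3*, *RGS2* or *PDE4D*. The tallest promoter peak among them in ATF3-Ctrl was that of *NR4A3*, at 24.7 (16.9 to 34.9), and the lowest normalized tag count in the ATF3-KO list was 6.2. The strongest ATF3-Ctrl promoter peak of all 7 genes was that at the start of the canonical *PER1* transcript, with 49.4 (38.1 to 63.1). This peak was also missing from the ATF3-KO list. In ATF3-Ctrl, 3.16% of the peaks scored higher than it.

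**Figure D2:**
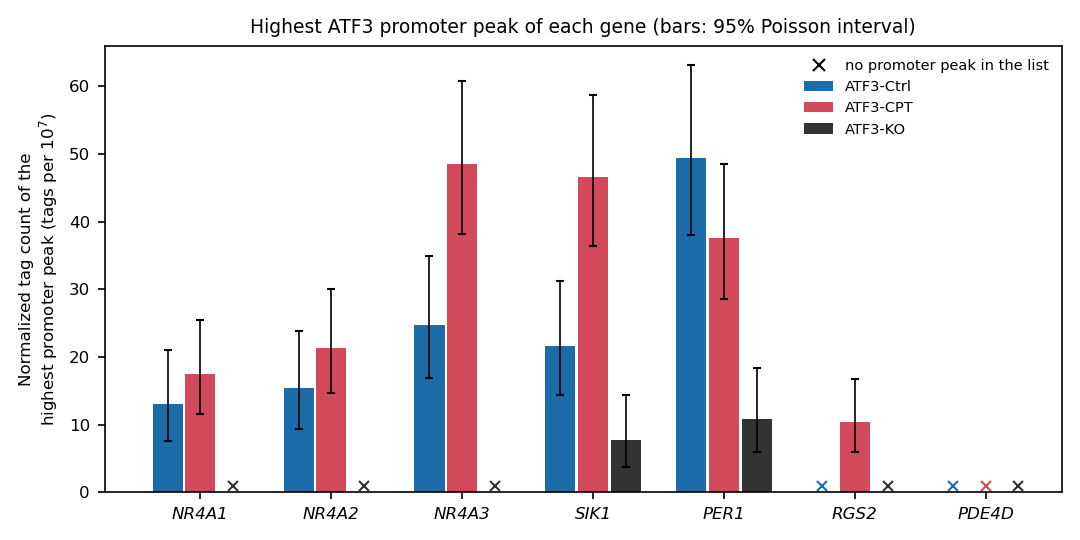
Highest ATF3 promoter peak of each gene in each ATF3 library. Bars give the normalized tag count (tags per 10000000 tags) with the 95% Poisson interval of that 1 peak, and crosses mark genes with no promoter peak in the list. ATF3-KO bars are at *SIK1* (7.8) and *PER1* (10.9). Bars of a gene can be different sites. The *PER1* bar of ATF3-KO (chr17:8059740-8059938) is another site than those of ATF3-Ctrl (chr17:8055690-8055816) and ATF3-CPT (chr17:8055687-8055811). The ATF3-Ctrl and ATF3-CPT bars of *NR4A1* and of *NR4A2* also differ in site.

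The effect of CPT was compared at sites found in both ATF3-Ctrl and ATF3-CPT. An ATF3-CPT peak was found at 24 of the 26 ATF3-Ctrl peaks, against 79.9% of all ATF3-Ctrl peaks, and these included all 13 promoter peaks, against 80.9% of all. At the 24 shared sites the normalized tag count was higher with CPT in 19, against 80.6% of all shared sites, and lower in 5, with a median ratio of 1.54 (range 0.609 to 2.67). At 7 sites it was at least 2-fold higher, against 43.9% of the 26906 shared sites of the genome, and at 0 sites at least 2-fold lower, against 2.16%. The median ratio over all shared sites was 1.81 (quartiles 1.13 and 2.64), a shift of 0.85 on the log2 scale. Relative to that median, 8 of the 24 sites were above it and 16 below it, with 0 sites at least 2-fold above it and 5 at least 2-fold below it. The shares of all shared sites past these limits around the median were not counted. The counts of 0 and 5 therefore do not set the 7 genes apart from other sites. The interval of the ratio was wholly above 1 at 10 sites, against 48.2% of all shared sites, and wholly below 1 at 0 sites, against 3.03%.

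Promoter sites showed smaller ratios than other sites in the genome as a whole, with a median of 1.39 over 7462 shared promoter sites and 2.01 over the other 19444. For the 7 genes the medians were 1.35 at the 13 promoter sites and 1.57 at the 11 other sites. Of these 11, 1 lay in a promoter of another gene, the *PER1* site at -6564 bp, and the median of the remaining 10 was 1.55. Of the 13 promoter sites, 3 were at least 2-fold higher with CPT, against 27.7% of all shared promoter sites, and 2 had a ratio under 1, against 24.6%. The shares of the 7 genes were near those of all shared promoter sites.

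**Figure D3:**
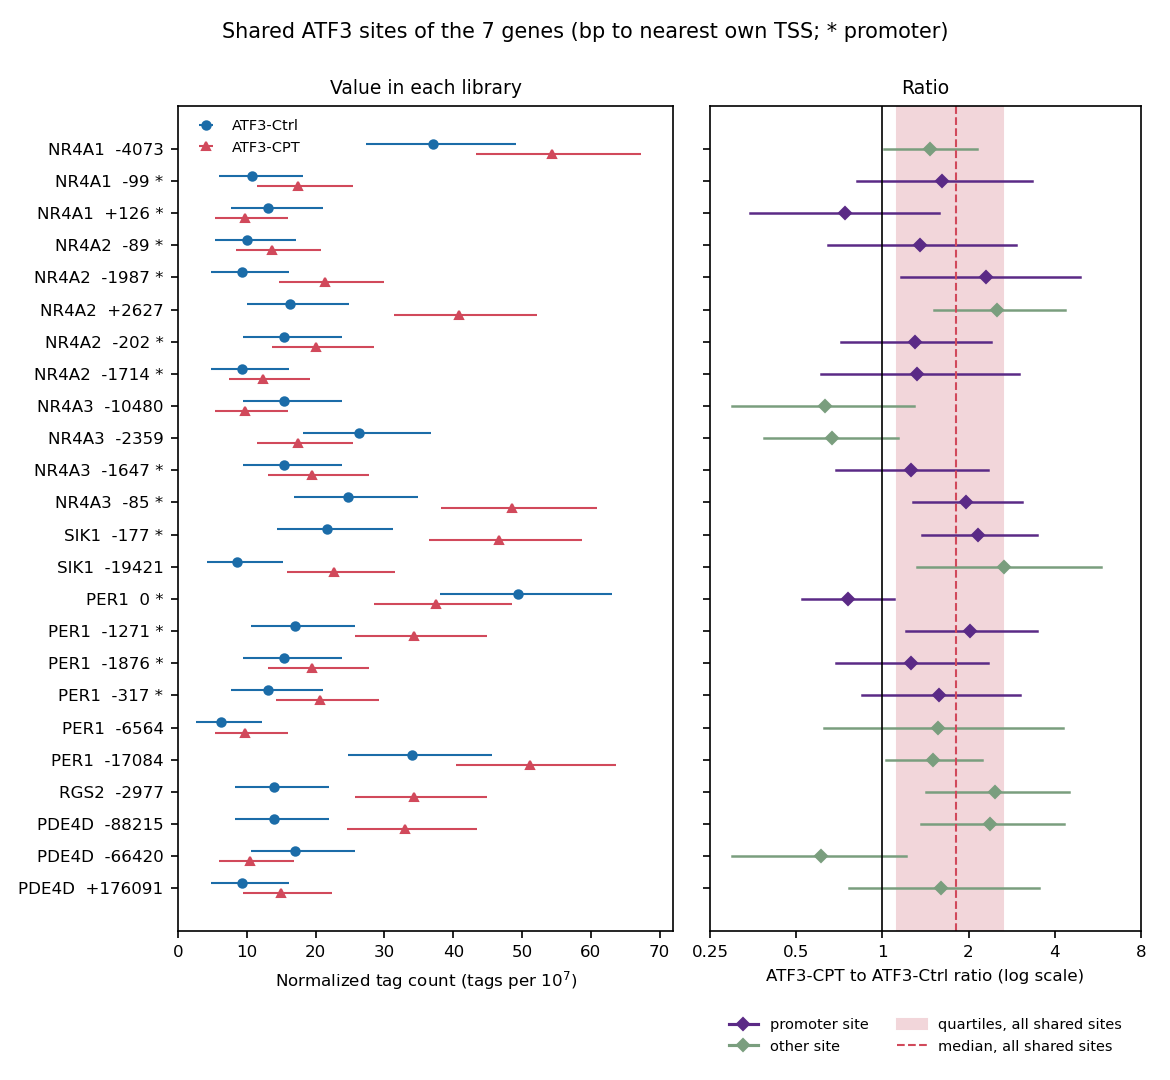
The 24 sites shared by ATF3-Ctrl and ATF3-CPT, named by gene and distance in bp from the nearest TSS of the gene, with asterisks for the 13 promoter sites. On the left, the normalized tag count (tags per 10000000 tags) in each library with its 95% Poisson interval; on the right, the ratio on a log scale with its 95% conditional interval, the median of all shared sites (1.81) and their quartiles. The 5 sites with a ratio below 1 are at *NR4A1*, *NR4A3* (2 sites), *PER1* and *PDE4D*.

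The NR4A genes encode orphan nuclear receptors that are induced within minutes to hours by cAMP and many other signals. *NR4A1* (chr12:52416616-52453291, plus strand) had its tallest peak in an intron at -4073 bp from the nearest TSS (chr12:52426825-52426951), outside the promoter windows. It was 37.1 (27.3 to 49.2) in ATF3-Ctrl and 54.3 (43.3 to 67.3) in ATF3-CPT, a ratio of 1.47 (1.02 to 2.14). Of its promoter peaks, the one at -99 bp went from 10.8 to 17.5, a ratio of 1.62 (0.818 to 3.33). The other, at +126 bp in an exon of the UTR and with an AP-1 core, went from 13.1 to 9.7, a ratio of 0.739 (0.344 to 1.57). Neither promoter interval excluded 1. The distances -4073 and -99 bp are from the TSS at chr12:52430961 and +126 bp is from that at chr12:52431499, both inside the gene. Listed after CPT only were promoter peaks of 14.2 at +9 bp of a downstream TSS (chr12:52445186) and of 7.8 at +994 bp. The last distance is from the TSS at the 5′ end of the gene (chr12:52416616).

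*NR4A2* (chr2:157180949-157198860, minus strand) had 4 promoter peaks in each of the 2 libraries from ATF3-WT cells. The distances -89 and -1987 bp are from a TSS inside the gene (chr2:157189274). The distances -202, -1714 and +2627 bp are from the TSS at its 5′ end (chr2:157198860). The peak with the CRE core, at -89 bp, was 10.0 (5.35 to 17.2) in ATF3-Ctrl and 13.6 (8.41 to 20.8) in ATF3-CPT, a ratio of 1.35 (0.647 to 2.94). The peak at -202 bp was 15.4 and 20.1, with a ratio of 1.30 (0.717 to 2.40), and that at -1714 bp was 9.3 and 12.3, with a ratio of 1.33 (0.611 to 3.0). The fourth, at -1987 bp, was 9.3 and 21.3, and its ratio of 2.30 (1.16 to 4.90) was the only one of these promoter peaks with an interval above 1. The tallest site of the gene after CPT was in an intron at +2627 bp, 16.2 (10.0 to 24.8) before and 40.8 (31.3 to 52.1) after, a ratio of 2.51 (1.51 to 4.34).

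*NR4A3* (chr9:102584137-102629173, plus strand) had a promoter peak at -85 bp that was 24.7 (16.9 to 34.9) in ATF3-Ctrl and 48.5 (38.2 to 60.8) in ATF3-CPT, with intervals that did not overlap and a ratio of 1.96 (1.28 to 3.07). Its other promoter peak, at -1647 bp, was 15.4 and 19.4, a ratio of 1.26 (0.690 to 2.33). Both shared peaks farther upstream had ratios on the other side of 1. At -2359 bp the values were 26.3 and 17.5 (ratio 0.665, 0.386 to 1.14) and at -10480 bp they were 15.4 and 9.7 (ratio 0.628, 0.299 to 1.29). Within 1 gene, therefore, the ratios lay on both sides of 1, but neither upstream interval excluded 1, and both excluded the median of all shared sites. Whether the sites moved by different factors was not tested. A further upstream peak, at -12032 bp with a normalized tag count of 17.5 and a score of 26, was listed after CPT only.

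At *SIK1* the promoter peak was 21.6 (14.4 to 31.3) in ATF3-Ctrl and 46.6 (36.4 to 58.7) in ATF3-CPT, a ratio of 2.15 (1.37 to 3.46). The ATF3-CPT peak (chr21:44847184-44847308) was centred at -235 bp, nearer to the CRE core, which the ATF3-Ctrl peak did not reach. The distal site at -19421 bp went from 8.5 to 22.6, and its ratio of 2.67 (1.32 to 5.82) was the highest of the 24. A further peak of 18.1 at -13923 bp was listed after CPT only. The ATF3-KO value at the promoter was 0.167 times that of ATF3-CPT (0.0770 to 0.326), with genotype and treatment both different in that pair.

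*PER1* had 4 promoter peaks in ATF3-Ctrl and 6 in ATF3-CPT, spread over its 7 annotated TSSs. The distances -1271 and -1876 bp are from the TSS at chr17:8055753. The distance -317 bp is from that at chr17:8059723 and -481 bp from that at chr17:8054150. The tallest (chr17:8055690-8055816) lay at the start of the canonical *PER1* transcript, inside the limits of the annotated gene. It was 49.4 (38.1 to 63.1) before and 37.5 (28.5 to 48.5) after CPT, a ratio of 0.759. The interval of that ratio (0.523 to 1.10) included 1 and excluded the median of all shared sites. Of all shared promoter sites, 8.97% had a lower ratio. The peak at -1271 bp went the other way, from 17.0 to 34.3, a ratio of 2.02 (1.21 to 3.48). The peak with the CRE core, at -1876 bp, was 15.4 and 19.4, a ratio of 1.26 (0.690 to 2.33), and that at -317 bp was 13.1 and 20.7, a ratio of 1.58 (0.850 to 3.03). The first promoter peak listed after CPT only, at -481 bp in intron 1, had a normalized tag count of 20.7 and a score of 32, and the second was the peak of 15.5 that overlapped the ATF3-KO peak. A distal site at -17084 bp went from 34.0 to 51.1, a ratio of 1.50 (1.03 to 2.23), but lay 2827 bp from the TSS of *TMEM107*, so its gene cannot be told from position. The same holds for 2 lower sites counted with *PER1*. The site at -6564 bp (6.2 and 9.7) lay 6 bp from the TSS of another gene in ATF3-Ctrl and at -5 bp from that of *VAMP2* in ATF3-CPT, and the ATF3-CPT peak at -8050 bp (9.1) lay at -909 bp from that of *VAMP2*.

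*RGS2* (chr1:192778169-192781405, plus strand) encodes a regulator that speeds up GTP hydrolysis by G-protein α subunits. In ATF3-Ctrl it had 1 peak, at -2977 bp, which was 13.9 (8.24 to 22) there and 34.3 (25.7 to 44.9) in ATF3-CPT, a ratio of 2.47 (1.42 to 4.47). This site held no core and no half-site, as its sequence shows, with no capitals.
RGS2 upstream, ATF3-Ctrl peak, chr1:192775129-192775255, + strand: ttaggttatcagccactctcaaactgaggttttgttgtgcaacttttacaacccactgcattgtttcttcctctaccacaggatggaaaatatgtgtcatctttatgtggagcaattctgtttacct
Promoter peaks appeared in the list after CPT only, at -216 bp with 10.4 (5.92 to 16.8), where a half-site stood, and at -956 bp with 7.1 (3.55 to 12.7), with an AP-1 core. The second had a score of 11, close to the threshold of 9.

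*PDE4D* (chr5:58264865-59817947, minus strand) encodes a phosphodiesterase that degrades cAMP, and with 1553083 bp it is far longer than the other genes. None of its 13 TSSs had a promoter peak in any of the 5 lists. Its 4 ATF3-Ctrl peaks amounted to 2.54 per Mb of its region, against 10.9 per Mb of the genome and 87.5 per Mb for the other 6 genes. The regions of those 6 were short, from 23237 bp (*RGS2*) to 65037 bp (*NR4A3*), with 20 kb upstream included, so these densities are of unlike regions. The intron 5 site with the CRE core, at -88215 bp from the nearest TSS of the gene, was 13.9 (8.24 to 22) in ATF3-Ctrl and 33 (24.6 to 43.4) in ATF3-CPT, a ratio of 2.37 (1.36 to 4.32). An intron 1 site (chr5:58792783-58792909) was 17.0 and 10.4, a ratio of 0.609 (0.299 to 1.21), the lowest of the 24. The 4 shared sites with a full CRE core in the ATF3-CPT peak thus had ratios from 1.26 (*PER1*) to 2.37 (*PDE4D*).

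Without an ATF3-Ctrl counterpart were 17 of the 41 ATF3-CPT peaks, against 61.7% of all ATF3-CPT peaks, and 6 of these were among the 19 promoter peaks, against 51.5% of all ATF3-CPT promoter peaks. Their scores ran from 9 to 32 with a median of 13. Scaled to the depth of ATF3-Ctrl, 14 of the 17 would still have reached its threshold, and the other 3, all in *PDE4D* with a score of 9, would not. This scaling takes account of depth only, and not of the median ratio of 1.81 over all shared sites. It was not applied to the ATF3-CPT peaks of other genes, so 14 of 17 has no background share beside it. In the opposite direction, 2 ATF3-Ctrl peaks were not found after CPT, a *PDE4D* intron 2 peak of 7.7 with a score of 10 and an *NR4A2* intron peak of 9.3 (chr2:157192188-157192314).

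The p53 lists held 11 peaks of the 7 genes in p53-CPT and 5 in p53-KO. A promoter peak was present at 1 gene in p53-CPT, against 4.13% of all genes, and at 0 genes in p53-KO, against 2.46%. The promoter peak, at *PER1* in a coding exon at -1276 bp of the nearest TSS, had a normalized tag count of 18.9 (6.95 to 41.2) from 6 tags and a score of 7, the threshold of that list. Of the 11 p53-CPT peaks, 4 overlapped a p53-KO peak, against 60.9% of all p53-CPT peaks, and 0 overlapped an ATF3-CPT peak, against 10.2%. Scores ran from 7 to 13. *PDE4D* held 9 of the 11, or 5.72 per Mb of its region against 2.93 per Mb of the genome, and in p53-KO the density was 2.54 per Mb against 2.51. The other 6 genes had 7.95 per Mb in p53-CPT and 3.98 per Mb in p53-KO, from 2 peaks and 1 peak. The *NR4A2* intron site that was missing from ATF3-CPT was listed in both p53 libraries, with 47.3 (26.5 to 78.1) in p53-CPT and 75.6 (42.3 to 125) in p53-KO, so it was present in cells without p53.

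A p53 element, searched with at most 3 mismatches to the consensus on either strand, was in 1 of the 11 peaks, against 20.3% of all p53-CPT peaks. This peak (chr5:58597707-58598025), in intron 1 of *PDE4D*, had a normalized tag count of 28.4 (13.0 to 53.9) from 9 tags, a score of 8 and no counterpart in p53-KO. Its element had 1 mismatch and is shown in capitals within 100 bases on the strand of the gene.
PDE4D intron 1, part of the p53-CPT peak, chr5:58597795-58597894, - strand: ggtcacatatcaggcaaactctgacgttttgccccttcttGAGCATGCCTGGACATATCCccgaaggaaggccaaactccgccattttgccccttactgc

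Other genes of the pathway were counted in the same way. The value of a gene is its highest promoter peak in each list taken alone, so values from different lists need not be of the same site. Among 30 genes of cAMP signalling (cyclases, protein kinase A subunits and anchors, phosphodiesterases, kinases and coactivators), 17 had a promoter peak in ATF3-Ctrl, 26 in ATF3-CPT, 3 in ATF3-KO, 3 in p53-CPT and 2 in p53-KO. Over all protein-coding genes the shares were 40.8%, 56.3%, 7.89%, 4.13% and 2.46%, in the same order. The 2 genes of p53-KO were also among the 3 of p53-CPT, so those genes had a promoter peak in cells without p53 too. Of the 17, 15 had a higher value after CPT, against 76.4% of all genes with a promoter peak in both lists. The tallest after CPT were those of *SIK3*, a relative of *SIK1* (10.0 in ATF3-Ctrl and 66 in ATF3-CPT), of the phosphodiesterase genes *PDE4A* (23.2 and 56.3) and *PDE7A* (36.3 and 38.2), and of *AKAP1*, an anchor of protein kinase A (18.5 and 33). The 3 genes with an ATF3-KO promoter peak were *AKAP1* (13.3), *GNAS*, which encodes the stimulatory G-protein α subunit (10.1), and *PDE7A* (8.6).

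Among 25 other target genes of CREB, 18 had a promoter peak in ATF3-Ctrl, 22 in ATF3-CPT, 4 in ATF3-KO, 2 in p53-CPT and 1 in p53-KO. The shares of all protein-coding genes were again 40.8%, 56.3%, 7.89%, 4.13% and 2.46%. Of the 18, 16 were higher after CPT, against the same 76.4%. *DUSP1*, a phosphatase of MAP kinases, had 45.6 in ATF3-Ctrl and 91.2 in ATF3-CPT, and *BTG2*, a known p53 target, had 21.6 and 57.6, and 104 in p53-CPT. The genes with an ATF3-KO promoter peak were *CREM* (9.4), a CREB relative whose internal promoter drives the repressor ICER, *FOSB* (9.4), *VGF* (9.4) and the clock gene *PER2* (7.8), the counterpart of *PER1*. All 4 were below the highest ATF3-Ctrl promoter peaks of the same genes, 19.3, 18.5, 29.3 and 13.1, which need not be the same sites. The 3 protein-coding genes with promoter values nearest to those of *PER1*, by distance over the 5 libraries on the log2(value + 1) scale, were *KAT14* and *PET117*, which share a promoter (distance 0.511), and *TBC1D22A* (0.546).

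**Figure D4:**
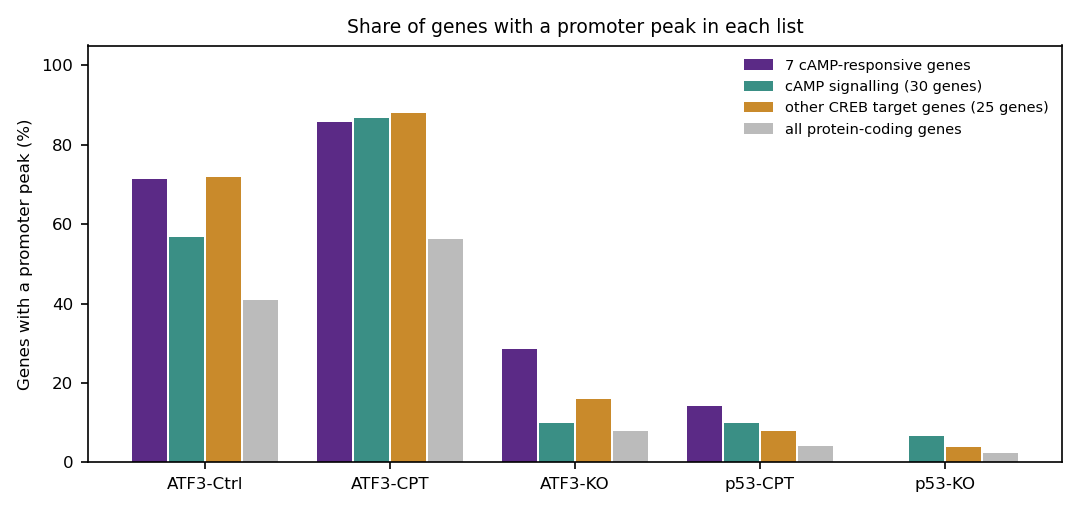
Share of genes, in percent, with a promoter peak in each of the 5 lists, for the 7 cAMP-responsive genes, 30 genes of cAMP signalling, 25 other CREB target genes and all protein-coding genes. In ATF3-Ctrl the counts are 5 of 7, 17 of 30 and 18 of 25, against 40.8% of all genes.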

How the data were processed

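Reads had been aligned by the authors to hg19 (BWA 0.6.1), and findPeaks of HOMER 4.1 had been run on each library alone, without an input. The deposited lists give a normalized tag count for each peak, a signal (coverage) that the authors scaled to 10000000 tags, and a findPeaks score that they did not scale. Thresholds per the file headers were a false discovery rate of 0.001, a local fold of 4 and a local p-value of 1e-04. Fold changes and p-values of the authors were not used.

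Whole tags were recovered from the normalized tag counts and the total tags. Peaks on chromosomes 1 to 22, X and Y were compared by an overlap of at least 1 bp, each ATF3-Ctrl peak with its highest-scoring ATF3-CPT partner. TSSs came from GENCODE release 44 on GRCh37. Python 3.11.15, pandas 2.3.3, scipy 1.17.1 and pysam 0.24.0 were used, and 11 of 11 known-answer checks on simulated data passed. Genes other than the 7 were named as the 4 tallest promoter peaks in ATF3-CPT of each list, any with an ATF3-KO promoter peak, and the 3 nearest to *PER1*. The genes and gene lists were chosen with earlier results of these data known.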

Additional observations from a re-analysis of the deposited data

How the results depend on the processing

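No paired analysis was possible because each condition had 1 library, and no replicate could be left out for the same reason. Of 48 alternative values, 29 stayed within the counting interval of a ratio or within 1.5 times a count and 19 moved further. With 100 kb upstream, the 7 genes held 42 peaks in ATF3-Ctrl, 73 in ATF3-CPT and 8 in p53-KO. With a score of at least 20, they held 11 peaks in ATF3-Ctrl, 25 in ATF3-CPT and 0 in ATF3-KO, p53-CPT and p53-KO, 0 of the 11 overlapped an ATF3-KO peak and 10 of the 11 were found after CPT. At that score 15 of the 25 ATF3-CPT peaks were not found before CPT, against 17 of 41 in the main setting. The count stayed within 1.5 times, but its share of the peaks rose. The share of all ATF3-CPT peaks at that score was not counted. A limit of 1.5-fold gave 13 shared sites higher and 3 lower, with no share of all shared sites counted beside them. Centring on the median of all shared sites gave 0 higher and 5 lower, again without such a share. The centred ratios at the strongest promoter peaks were 0.410 (*NR4A1*), 0.723 (*NR4A2*), 1.09 (*NR4A3*), 1.19 (*SIK1*) and 0.420 (*PER1*). Centring on shared promoter sites, added after the data had been seen, gave 0.534, 0.941, 1.42, 1.56 and 0.547. The *NR4A2* ratio, 1.30 without centring and with an interval that included 1, thus turned to the other side of 1 under both. Without peaks found in p53-KO, 7 p53-CPT peaks remained. Half-sites in place of full cores were in 15 of 26 ATF3-Ctrl peaks, against 5 with a CRE or AP-1 core. A half-site is a shorter word than either core and is also counted inside a full CRE core. The share of all ATF3-Ctrl peaks with a half-site was not counted. Whether the scaling or ATF3 binding set the shift was not tested. Depth limits all single sites, and no interval covers the difference between cultures.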
